A study of Homo sapiens with 2 samples.

Results

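The 10 genes described here encode subunits of the SWI/SNF chromatin remodelling complex, also called BAF. They are the ATPases SMARCA2 and SMARCA4, the core subunits SMARCB1, SMARCC1 and SMARCC2, the variants SMARCD1, SMARCD2 and SMARCD3, and SMARCE1 and ARID1A. They were taken as a fixed list, and every probe set that the platform annotation pairs with one of these symbols alone was used. This gave 39 of 41097 singly named probe sets and 10 of 19775 genes. A probe set is several short oligonucleotides that together read 1 transcript region. No member was found under an older symbol. Ca9-22 cells, a squamous carcinoma line from the human gingiva, stably carried either an empty vector or a vector for PTHLH, and both cultures were selected with the antibiotic blasticidin, to which the vector gives resistance. PTHLH is a secreted hormone-like peptide that acts on the parathyroid hormone receptor. RNA of each kind of cell went to 1 Affymetrix U133 array. The age of the cultures at harvest, the promoter of the vector and the number of integrations were not given in the sources used here, and no clone is named.

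SWI/SNF complexes use the energy of ATP to slide or evict nucleosomes, which opens promoters and enhancers to transcription factors. Each complex holds a single ATPase, SMARCA2 or SMARCA4, on a core that usually includes SMARCB1, SMARCC1 and SMARCC2. Alternative subunits such as the SMARCD proteins and ARID1A give complexes of different composition. Subunit genes, ARID1A among them, are often mutated in human carcinomas.

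The deposited values were intensities in arbitrary units, with array medians of 19.5 with the empty vector and 19.4 with PTHLH. All 4 squamous markers named here (KRT5, KRT14, DSG3 and SFN) lay above both medians, and none of 4 leukocyte markers did. Of 6 fibroblast markers, COL1A1 was bright (2437 and 1652), and the others did not exceed 34.3. COL1A1, PDGFRB and DCN lay above both medians. The 6 colon markers, looked at because a description label names the line CX-1 in place of Ca9-22, did not exceed 45.4, and 3 of them (CDX1, CDX2 and VIL1) lay above both medians. No probe set is singly named for PTHLH in the annotation used here, which leaves 11777 probe sets unnamed, so the vector was not checked. The same description label names RAB3C in place of PTHLH, and RAB3C, a vesicle-transport GTPase, was at 10.2 with the empty vector and 10.5 with PTHLH, below both medians. On 6.16% of probe sets both arrays held an identical value. On the log2 scale, the 3′ probe set exceeded the 5′ one by 0.58 and 0.64 for GAPDH, and by 4.39 and 4.17 for ACTB, empty vector first. With 1 culture per group there is no replicate error and no p-value. The only internal error is the disagreement between the 2 brightest probe sets of a gene, which for a single log2 difference came to an SD of 0.20 (5594 genes whose 2 brightest both exceeded the array medians). It measures probes, not cultures. In bulk RNA, fewer cells with a transcript and less of it per cell cannot be told apart.

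By the brightest probe set of each gene, 8 of the 10 SWI/SNF genes were higher on the PTHLH array, SMARCC2 was equal and SMARCD3 was lower. Of all genes, 48.5% were higher by the same rule. Among the 8, the log2 differences of SMARCA4 (0.05), SMARCC1 (0.18) and SMARCD2 (0.05) lay within the probe SD of 0.20. Leaving out probe sets whose name ends in x_at or s_at, 5 of the 9 members left were higher, and with the most changed probe set of each gene 7 of 10 were. No member reached a 1.5-fold difference in either direction, the limit the study used for its signature. Of all genes, 1.97% were at least 1.5-fold higher and 3.52% at least 1.5-fold lower by the same rule. ARID1A (1.42-fold), SMARCA2 (1.41-fold) and SMARCE1 (1.38-fold) had the larger increases, and SMARCD3 had the only decrease (a log2 difference of -0.51). The order of the first pair turned with quantile normalization of both arrays, where SMARCA2 had a log2 difference of 0.51 and ARID1A of 0.47. The median log2 difference of the 10 genes was 0.27, and that of all 19775 genes was 0. It was 0.15 with the median over each gene's probe sets and 0.045 over those 9 members, where the median of all genes was also 0. By the brightest probe set, 5 of the 10 members and 10.6% of all genes were at least 1.25-fold higher. At least 1.25-fold lower were 1 member and 2307 of the 19775 genes. With the median over each gene's probe sets, only ARID1A (0.38) and SMARCE1 (0.53) of the 5 higher members stayed past 1.25-fold. SMARCA2 (0.25), SMARCD1 (0.21) and SMARCB1 (0.10) did not, and the share of all genes was not counted by that rule.

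Over single probe sets, 26 of the 39 were higher with PTHLH, 11 were lower and 2 were identical. Of these, 3 were at least 1.5-fold higher, against 2% of all singly named probe sets, and 1 was at least 1.5-fold lower, against 2.78%. Only 28 of the 39 lay above the median of both arrays. Among these 28, 22 were higher and 5 were lower, 1 was at least 1.5-fold higher and none was at least 1.5-fold lower. Probe sets of the same gene are not independent of each other, and SMARCA4 alone gave 6 of the 22 and SMARCC1 4. Of all probe sets above both medians, 50.7% were higher, and 2.72% and 3.57% passed 1.5-fold upwards and downwards. The 11 dimmer probe sets of the members were split, with 4 higher and 6 lower, and they held 3 of the 4 values past 1.5-fold.

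**Figure D1:**
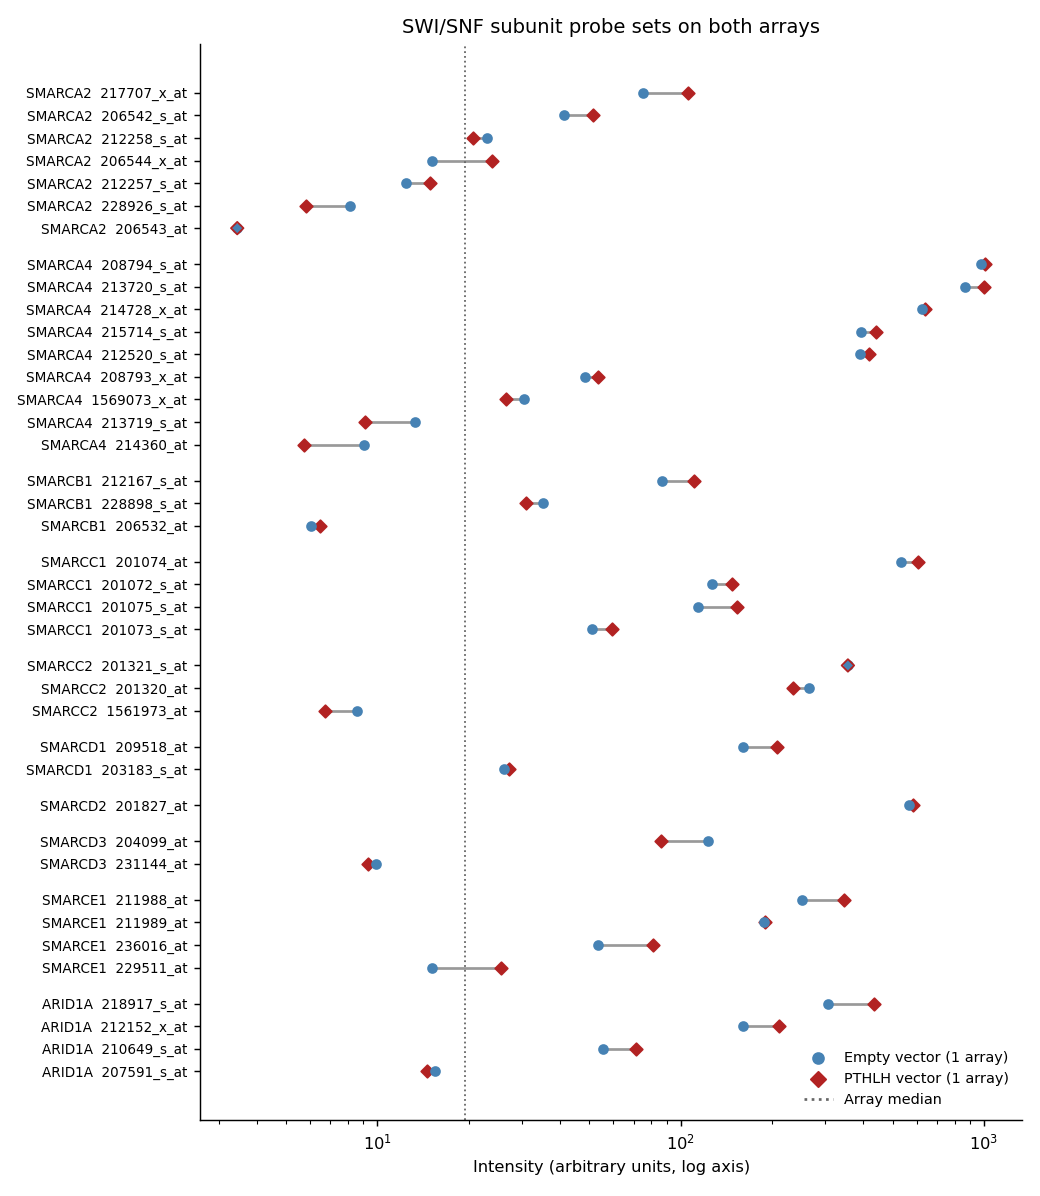
Intensity in arbitrary units (log axis) of all 39 SWI/SNF probe sets, 1 row each, on the empty vector array (blue circles) and the PTHLH array (red diamonds), joined by a line; the dotted line is the empty vector array's median of 19.5. The 3 brighter rows of ARID1A shift to the right with PTHLH, the brightest from 307 to 435, and the brighter row of SMARCD3 shifts to the left, from 123 to 86.4.

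SMARCA4, also known as BRG1, is one of the alternative ATPase engines of the complex, and its mRNA was read by 9 probe sets. The brightest, 208794_s_at, gave 975 with the empty vector and 1008 with PTHLH. The next ones, 213720_s_at and 214728_x_at, gave 868 and 1001, and 623 and 637. Both arrays were therefore close to each other wherever the signal was strong. Probe sets 215714_s_at and 212520_s_at gave 392 and 442, and 389 and 417. Across the 7 probe sets above both medians the log2 difference ran from -0.19 to 0.21 with a median of 0.10, and 6 of the 7 were higher. The remaining 2 lay below both medians and went the other way, 213719_s_at from 13.3 to 9.12 and 214360_at from 9.05 to 5.71. The log2 difference of 214360_at was -0.66, so the only SMARCA4 value past 1.5-fold came from the dimmest of its 9 probe sets.

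SMARCA2, also known as BRM, is the other ATPase, and a complex holds it in place of SMARCA4. Its brightest probe set, 217707_x_at, gave 75.0 with the empty vector and 106 with PTHLH, a log2 difference of 0.50. The second, 206542_s_at, went from 41.3 to 51.3 (0.31), and the third, 212258_s_at, from 23.1 to 20.7 (-0.16). The 3 probe sets above both medians thus did not share a direction, and the brightest carries the suffix x of cross-hybridising probes. Below them, 206544_x_at went from 15.1 to 23.9, a 1.58-fold increase across the array median, and 228926_s_at from 8.15 to 5.82, a log2 difference of -0.49. Probe set 206543_at was at 3.46 on both arrays and 212257_s_at went from 12.5 to 14.9. The log2 difference of SMARCA2 exceeded that of SMARCA4 by 0.45 with the brightest probe set of each. A gap between 2 single log2 differences has an SD of 0.29 from the probe disagreement alone. With the median over the probe sets of each gene the values were 0.25 and 0.05.

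SMARCB1, the core subunit also called INI1, had 3 probe sets that did not share a direction. Its brightest, 212167_s_at, went from 87.0 to 111 (1.28-fold), while 228898_s_at went from 35.1 to 31.0, a log2 difference of -0.18. The third, 206532_at, was dim at 6.06 and 6.48.

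SMARCC1 and SMARCC2 are paralogous scaffold proteins that hold the core together. All 4 probe sets of SMARCC1 lay above both medians and all were higher with PTHLH. Probe set 201074_at went from 533 to 604, 201072_s_at from 127 to 148, 201075_s_at from 115 to 153 and 201073_s_at from 51.1 to 59.5. The log2 differences of these 4 ran from 0.18 to 0.42 with an SD of 0.11 between probe sets. SMARCC2 showed no increase on any of its 3 probe sets. Its brightest, 201321_s_at, held the same value of 356 on both arrays, 201320_at went from 264 to 234 (a log2 difference of -0.18), and the dim 1561973_at from 8.59 to 6.75. The gap between SMARCC1 and SMARCC2 was 0.18 on the log2 scale by their brightest probe sets, within the probe SD of 0.29 for such a gap.

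The SMARCD proteins are mutually exclusive accessory subunits that link the complex to sequence-specific transcription factors, and their genes did not move alike. SMARCD1 went from 161 to 208 by 209518_at, a 1.29-fold increase, and from 26.2 to 27.1 by the dimmer 203183_s_at. SMARCD2 was read by a single probe set, 201827_at, which gave 564 and 582. SMARCD3, the variant known from heart and muscle development, went from 123 to 86.4 by 204099_at, a log2 difference of -0.51. Its second probe set, 231144_at, lay below both medians at 9.91 and 9.29. SMARCD3 was the only member whose brightest probe set was lower with PTHLH. By the brightest probe sets, the log2 difference of SMARCD1 exceeded that of SMARCD3 by 0.88, and that of SMARCD2 exceeded it by 0.55. The probe SD of such a gap is 0.29. With the median over the probe sets of each gene, SMARCD1 had 0.21, SMARCD2 0.05 and SMARCD3 -0.30, which brings them closer together. Among all genes whose brightest probe set lay above both medians, 9.97% differed in either direction by at least as much as SMARCD3.

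SMARCE1, an HMG-box subunit that binds DNA, was higher with PTHLH on all 4 of its probe sets. Its brightest, 211988_at, went from 251 to 346, and 236016_at went from 53.4 to 80.9 (1.51-fold). The second brightest, 211989_at, gave 188 and 190.2 and hardly differed. Probe set 229511_at went from 15.1, below the array median, to 25.6, and its 1.70-fold increase was the largest among the 39. The 3 probe sets above both medians ranged from 0.02 to 0.60 on the log2 scale, a spread with an SD of 0.30.

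ARID1A is the ARID-domain subunit of canonical BAF complexes and a tumour suppressor in several carcinomas. Its 3 brighter probe sets gave much the same increase. Probe set 218917_s_at went from 307 to 435, 212152_x_at from 161 to 211 and 210649_s_at from 55.3 to 71.5. The log2 differences were 0.50, 0.39 and 0.37, with an SD of 0.07. The dim 207591_s_at gave 15.5 and 14.6. At least as large a difference as that of the brightest ARID1A probe set was found in 10.1% of all genes above both medians, so a change of this size is not rare on these arrays. All 4 ARID1A probe sets carry a suffix, x for 212152_x_at and s for the others. The suffix s marks probes shared by several transcripts, which can be of the same gene.

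**Figure D2:**
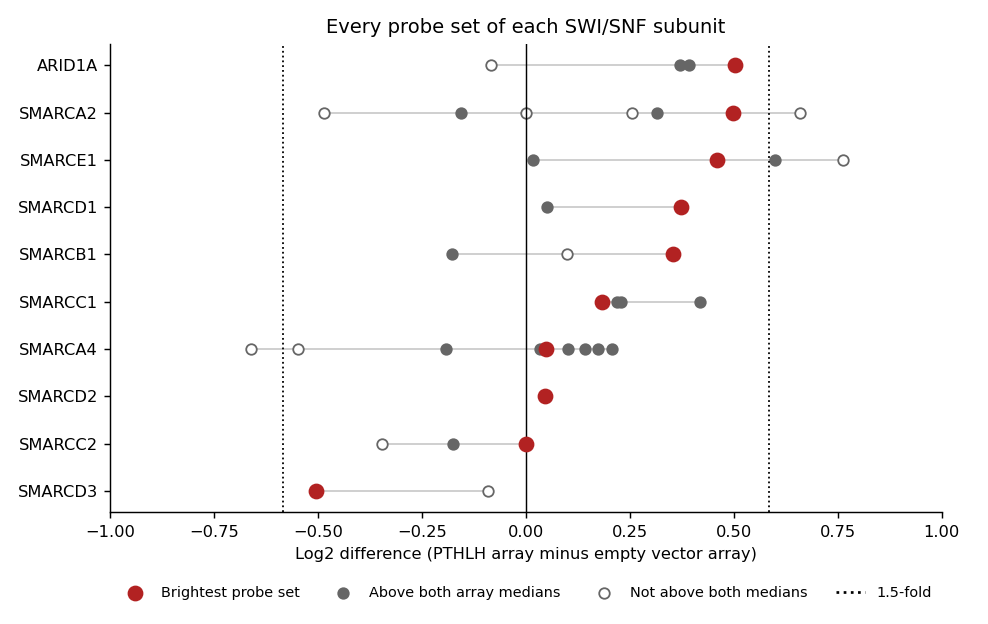
Log2 difference (PTHLH minus empty vector) of every probe set of each SWI/SNF gene. Red points are the brightest probe set of a gene, grey points are others above both array medians, open points are not above both medians, and dotted lines mark 1.5-fold. No red point lies outside the dotted lines, ARID1A and SMARCA2 (0.50 each) are the highest red points and SMARCD3 (-0.51) the lowest, and 3 of the 4 points outside are open.

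Agreement between a gene's own probe sets separated the members further. Of the 8 members with at least 2 probe sets above both medians, SMARCC1, SMARCD1, SMARCE1 and ARID1A were higher on all of them, and none was lower on all of them. Over 5599 genes with at least 2 such probe sets, 31.0% were higher on all and 25.0% were lower on all. With at least 3 such probe sets, 3 of 5 members and 24.3% of 2186 genes were higher on all.

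The call of a SWI/SNF gene depended on which probe set stood for it. When the most changed probe set stood for each gene, SMARCA2 and SMARCE1 counted as at least 1.5-fold higher and SMARCA4 as at least 1.5-fold lower, against 3.48% of all genes higher and 4.98% lower by that rule. These 3 genes are also among the molecules that the supplement lists under the role of BRCA1 in the DNA damage response. That list was drawn from the same arrays, so it is not independent evidence of their direction. For SMARCA4 this choice turned a log2 difference of 0.05 on its brightest probe set into one of -0.66 on its dimmest. SMARCA2 had 7 probe sets, SMARCA4 9 and SMARCE1 4. SMARCC1 and ARID1A also had 4 each and did not pass 1.5-fold by the largest change (0.42 and 0.50). Among all genes, 4.98% of those with 1 probe set passed 1.5-fold in either direction by the largest change, 15.5% of those with 4 or 5 and 20.3% of those with at least 6. By the brightest probe set the same shares were 4.98%, 5.29% and 5.71%.

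**Figure D3:**
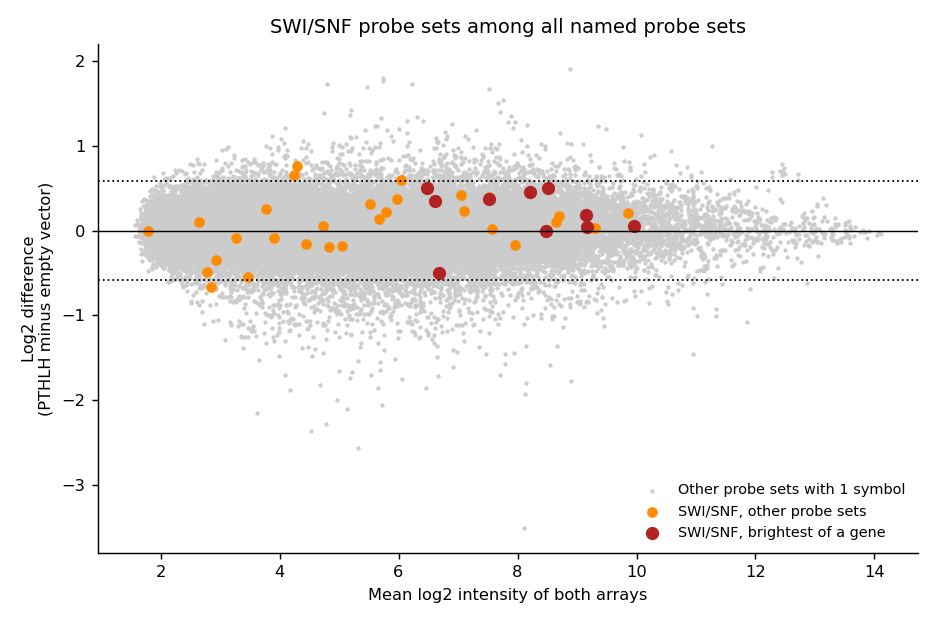
Log2 difference (PTHLH minus empty vector) against the mean log2 intensity of both arrays for all 41097 singly named probe sets (grey), with the 10 brightest SWI/SNF probe sets in red and the other 29 in orange; dotted lines mark 1.5-fold. The red points lie between -0.51 and 0.50, inside the dotted lines, and 3 of the 4 orange points outside do not exceed both array medians.

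The windows before the transcription start of ARID1A and SMARCD3 are shown as 1 of the members with the larger increases and the only member with a decrease by the brightest probe set, so that these regulatory regions can be read side by side. They are RefSeq sequences of GRCh38.p14, 250 bases upstream of the most upstream listed start, 5′ to 3′ on the strand of the gene, with CpG dinucleotides in capitals. The ARID1A window is chr1:26695765-26696014 on the plus strand and the SMARCD3 window is chr7:151277150-151277399 on the minus strand.
ARID1A: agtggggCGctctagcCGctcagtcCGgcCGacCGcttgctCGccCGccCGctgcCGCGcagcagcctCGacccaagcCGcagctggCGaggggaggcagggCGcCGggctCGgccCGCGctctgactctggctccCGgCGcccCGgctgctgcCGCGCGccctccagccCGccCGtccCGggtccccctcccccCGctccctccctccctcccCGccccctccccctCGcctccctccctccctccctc
SMARCD3: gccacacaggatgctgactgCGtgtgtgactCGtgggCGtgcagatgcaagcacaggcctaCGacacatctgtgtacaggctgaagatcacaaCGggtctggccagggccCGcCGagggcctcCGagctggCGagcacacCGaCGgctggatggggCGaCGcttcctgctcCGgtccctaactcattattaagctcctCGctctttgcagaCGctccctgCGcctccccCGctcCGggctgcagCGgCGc
The ARID1A window held 30 CpG and 80.4% G or C, and the SMARCD3 window 21 CpG and 65.2%, against medians of 11 CpG and 58% over 35116 listed promoters of this length. SMARCD3 has 3 listed starts, and the windows of the other two held 1 and 34 CpG, the last more than that of ARID1A. SMARCA2 has 4 listed starts, with 29, 0, 1 and 8 CpG in their windows. Which of them a probe set reads was not given in the sources used here. Promoters were listed for 8 of the 10 members, all but SMARCC1 and SMARCC2. On either strand of the 16 windows of these 8 genes, neither the cAMP response element TGACGTCA, nor the RUNX core TGTGGT, nor the E2F sites TTTCCCGC, TTTCGCGC, TTTGCCGC and TTTGGCGC were found. Of all listed promoters, 1.65%, 11.0% and 2.79% held them, in that order. The arrays measured nothing at these regions.

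The other subunits of the complex were described in the same way from a list of 20 genes. By the brightest probe set none was at least 1.5-fold changed, 13 were higher and 7 were lower, with a median log2 difference of 0.08. Other probe sets went past 1.5-fold upwards, with SS18 up to 1.12 (0.22 by its brightest) and BCL11A up to 0.68 (0.11). The lowest probe set in the list was at -0.39, for PHF10. DPF1, a PHD-finger subunit, had 0.56 and a dimmer probe set at 0.18. BCL11B, a zinc-finger protein that associates with BAF, had 0.55, with its other probe sets between 0 and 0.37. ARID1B, the paralogue that can replace ARID1A, went from 258 to 360 (0.48), but its 7 probe sets ranged from -0.09 to 0.74 with a median of 0.10.

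A grouping by assembly, made after the values were seen, set subunits of 3 forms of the complex side by side. Canonical BAF stood there by ARID1A and ARID1B alone, with log2 differences of 0.50 and 0.48. The DPF subunits were left out of this grouping and did not move alike (DPF1 0.56, DPF2 0.04 and DPF3 -0.03). In PBAF, the form with a polybromo subunit, PBRM1 went from 325 to 424 (a log2 difference of 0.38). Its 6 probe sets were all higher, from 0.20 to 0.50, but both ends of that range came from dim ones. These went from 3.64 to 4.19 and from 4.66 to 6.57. The PBRM1 probe sets above both medians had 0.38, 0.48 and 0.35. ARID2, the ARID subunit of PBAF, had 0.29, BRD7 had 0.02 and PHF10 had -0.09. The other BRD7 probe sets lay between 0.36 and 0.53 and that of PHF10 at -0.39, so for both the brightest probe set gave the value nearest 0. In the non-canonical form, BRD9 had -0.04, BICRA -0.13 and BICRAL -0.15, with a second BICRAL probe set at 0.16.

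The members were also set beside the other families of nucleosome remodellers. The ISWI genes had a median log2 difference of 0.15 over 12 genes, with 11 higher. POLE3, a histone-fold subunit, was the only one past 1.5-fold (0.67, a single probe set). SMARCA5, the main ISWI ATPase, had 0.43 and BAZ1B 0.34, but the medians over their probe sets were -0.04 and 0.01. Their lowest probe sets were at -0.12 and -0.10.

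Among 20 CHD and NuRD genes the median was 0.05 with 12 higher, and CHD3, a NuRD ATPase, was past 1.5-fold on both its probe sets (0.67 and 0.68). The methyl-CpG reader MBD2 had 0.50 and the histone chaperone RBBP4 0.41, while the medians over their probe sets were 0.04 and 0.13. None of 22 INO80, SRCAP and TIP60 genes passed 1.5-fold, with a median of 0.09. The largest there were MCRS1 (0.56), the acetyltransferase KAT5 (0.44, its 3 probe sets from 0.44 to 0.66) and the ATPase SRCAP (0.39).

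Of 13 other SNF2 family ATPases, HLTF, a DNA damage tolerance translocase, was lower (159 to 95.5, -0.74) and RAD54B, a recombination motor, was higher (0.59), both past 1.5-fold and each by a single probe set. SMARCAD1 had 0.44, and the median of the family was 0.19. Among 9 further chromatin regulators, with a median of 0.18, the acetyltransferases CREBBP and EP300 had 0.71 and 0.54 and the methyltransferase KMT2A had 0.28. The other probe sets of CREBBP went down to 0.08, that of EP300 had 0.25, and those of KMT2A ranged from -0.39 to 0.65. In each list the median lay above that of all genes, and the lists differ in size, so the median of 0.27 is given as a description of the 10 members and does not set them apart.

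**Figure D4:**
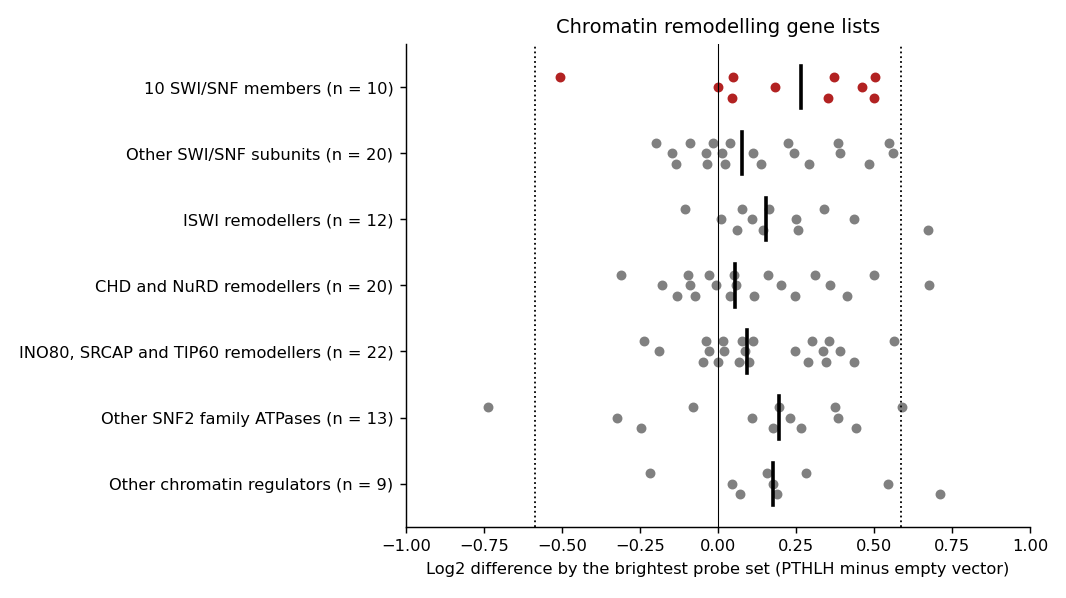
Log2 difference by the brightest probe set (PTHLH minus empty vector) of each gene in 7 lists of chromatin regulators, 1 point per gene, with the list median as a black bar and 1.5-fold as dotted lines. The SWI/SNF members (red) have a median of 0.27 and a single low point, SMARCD3 at -0.51; the other lists have medians from 0.05 to 0.19.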

How the data were processed

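The deposited table holds linear intensities, a value for each probe set on each array, which the authors made from Affymetrix U133 arrays hybridised with biotin-labelled cRNA. How they corrected the background, normalized the arrays and summarised the probes was not given in the sources used here, and these steps can change a small difference. Samples were grouped by their expression label. Probe sets were named from the platform annotation, with symbols updated through RefSeq gene identifiers. Of 54675 probe sets, 1801 with several symbols and 11777 unnamed here were left out.

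Differences are log2(PTHLH) minus log2(empty vector), with no further normalization, pseudocount or test. The brightest probe set by mean log2 value stood for a gene. The members and gene lists were chosen with earlier results of these data known. Besides the members, each list's genes past 1.5-fold and its 3 largest differences above an array median were named. Members of the assemblies, including PBRM1, were named after their values were seen, as were DPF2, DPF3, SS18 and BCL11A. The alternatives were quantile normalization, centring on brighter probe sets, a floor at percentile 40, dropping dim probe sets or those with suffix x or s, a pseudocount of 16, the median or the largest change over probe sets, and a 2-fold limit. The counting and the probe SD were tried on simulated data with a shared shift per gene and equal noise on every probe set. That trial checks the code only and does not cover dim probe sets that disagree with brighter ones. Python 3.11.15, pandas 2.3.3, numpy 2.4.6 and matplotlib 3.10.9 were used.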

Additional observations from a re-analysis of the deposited data

How the results depend on the processing

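No paired analysis was possible because each group has 1 array. The number of arrays limits every value here. By the brightest probe set no SWI/SNF gene passed 1.5-fold with quantile normalization. None did with centring, without dim probe sets, with the floor, with the pseudocount of 16 or at 2-fold. These settings could not have added a gene. Centring subtracted 0, and the brightest probe set of every member lay above both medians, out of reach of the floor and the filter. A pseudocount shrinks a fold, and a 2-fold limit calls no more genes than 1.5-fold. Of the 3 higher and 1 lower member probe sets, 1 higher and 0 lower were left without dim probe sets, 0 lower with the floor, and 0 in either direction with the pseudocount or at 2-fold. When the most changed probe set stood for a gene, 2 genes were higher and 1 lower. Without probe sets of suffix x or s, 9 genes had a value, 1 of them (SMARCA4, -0.66) was at least 1.5-fold lower, and the median log2 difference of the members was 0.045 in place of 0.27. ARID1A then had no probe set, and SMARCA2 was read only by its dimmest one, at 0. SMARCA4 (9.05 and 5.71) and SMARCB1 (6.06 and 6.48) were also read only by their dimmest probe set, below both array medians. Of 79 gene values over all alternatives, 10 moved by more than the probe SD of 0.20. All 10 came from dropping suffix x or s, or from the median or the largest change over probe sets. The values with centring, without dim probe sets and with the floor repeated the main ones, which holds the share moved down. There were 2 changes of sign, both of SMARCA4. SMARCC2, at 0 in the main setting, could not be counted there and went down to -0.35. SMARCD3 was negative throughout, between -0.51 and -0.30, and SMARCE1 positive, between 0.43 and 0.76.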
